A study of Mus musculus with 3 samples.

Results

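Rn45s is the symbol for a copy of the ribosomal RNA precursor on mouse chromosome 17, and its reads were taken from 1 fixed window of the mm9 build, chr17:39979900-39985800, of 5901 nt. A read belonged to it when it lay wholly inside the window, on either strand, and the plus strand was counted as sense. The window was set from the position of the gene and not from the reads. It held 1989 of the 1727697 deposited reads, of which 1978 were sense and 11 antisense. No read crossed an edge of the window.

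The study made HITS-CLIP libraries for the RNA-binding protein Ptbp2, a regulator of alternative splicing, from whole testes of 3 male CD1 mice aged 8 weeks. HITS-CLIP crosslinks protein to RNA with ultraviolet light, recovers the protein and sequences the RNA fragments attached to it. There was 1 group, with no mutant, input or control-antibody library, so bound RNA and background RNA cannot be told apart here. The deposited file draws its reads in 3 display colours, treated as the 3 libraries, but the labels do not say which animal a colour stands for. Each colour class is therefore reported by itself, without an SD, and no test between animals could be made. Intervals are 95% Wilson intervals that cover counting error only, and copies of 1 molecule made during amplification are not independent counts.

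Ribosomal RNA is transcribed by RNA polymerase I as 1 long precursor that contains the 18S, 5.8S and 28S RNAs. These are flanked and separated by transcribed spacers that are removed as the RNAs mature. The genes for it lie in tandem arrays of near-identical copies, most of which are absent from genome assemblies, so an assembled copy such as Rn45s can receive reads that come from any of them. Ribosomal RNA is the most abundant RNA of the cell and is a usual source of background in libraries of crosslinked RNA. The level at this window is therefore uncertain as a level of 1 gene copy, and how reads with several possible places were treated is, in the sources used here, not given. The RefSeq gene table at hand, for GRCm38, has no entry named Rn45s. On chromosome 17 it lists the pseudogene Rn18s-rs5, an 18S-related sequence of 1849 nt, which overlaps the long noncoding RNA gene AY036118 and lies between Esp15 and Esp38, which encode exocrine gland-secreted peptides. These positions were not carried over to mm9, so the reads below were not assigned to 18S RNA or to a spacer. How much of the precursor the window of 5901 nt holds was not determined.

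Rn45s carried more reads than any other stretch of its length, when the genome was divided into such stretches on each strand. There were 469 red, 1136 green and 373 blue sense reads. As reads per 1000000 reads of the class (RPM), these were 950 in red (interval 868 to 1040), 1193 in green (1126 to 1265) and 1323 in blue (1195 to 1464). With every read counted, red was the lowest of the 3 classes, with an interval below those of the other classes. The intervals of green and blue overlapped, and blue was 1.39-fold above red. The order of red and green was not stable. With 1 read per 5' end and class, green was lowest, at 707 RPM of the reads kept, against 801 in red and 1114 in blue. Together the 1978 sense reads made 0.114% of all reads (0.110 to 0.120) and 4.70% of the 42051 plus-strand reads of chromosome 17.

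The rest of the genome was divided into tiles of the same length, each strand apart. Of 239712 tiles with at least 1 read, 0 held as many reads as Rn45s, which is 0% of them, and the median tile held 3 reads. Rn45s also ranked first in each class alone. The next tile, the first of the mitochondrial chromosome on the plus strand, held 882 reads, so Rn45s was 2.24-fold above it. That mitochondrial tile was the highest other tile in every class, with 259 red, 426 green and 197 blue reads. The third was a minus-strand tile of chromosome 19 (5794783 to 5800683), with 644 reads. Next came a minus-strand tile of chromosome 3 (20393857 to 20399757) with 614 reads, a plus-strand tile of chromosome 5 (129255505 to 129261405) with 502 reads and a plus-strand tile of chromosome 7 (89919439 to 89925339) with 449 reads.

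**Figure D1:**
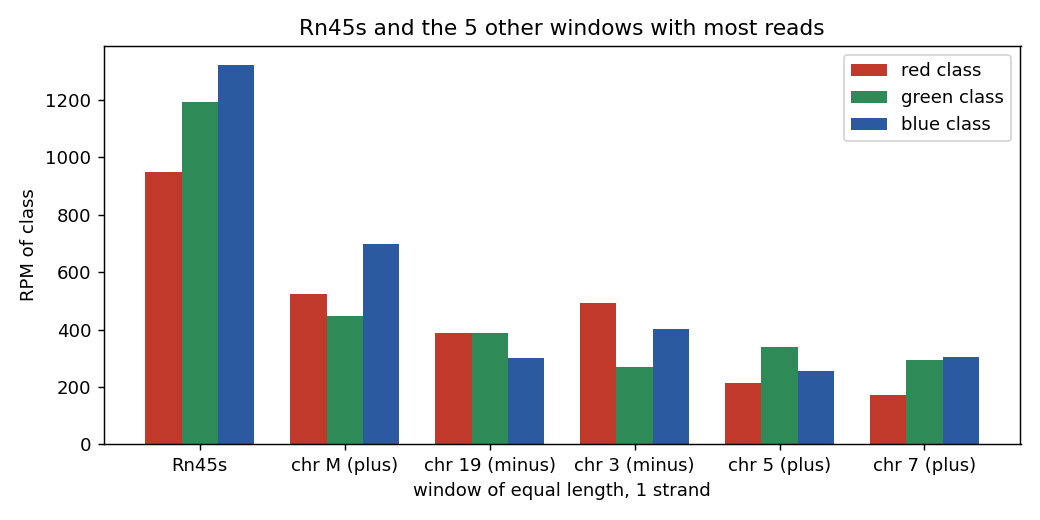
Bars give the RPM of the colour class (y axis) for the Rn45s window and the 5 other tiles of equal length with most reads (x axis), 1 bar per class. Rn45s stands at 950 to 1323 RPM, and the highest other bar is the blue class of the mitochondrial tile, at 699 RPM.

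Sense reads covered 84.9% of the bases of Rn45s, against 79.1% in the chromosome 19 tile, 77.3% in the mitochondrial tile and 36.8% in the chromosome 5 tile. Its commonest 5' end held 0.758% of the reads, while in the other 5 tiles the commonest 5' end held 1.13% to 2.23%. The window contained 12 clusters, where a cluster is a run of overlapping reads of 1 strand whose summit reaches 10 reads or more and to which all 3 classes contribute. The other 5 tiles had 1 to 9 clusters, the most in the chromosome 3 tile. All 3 measures depend on the number of reads, which was not matched between the tiles, and the differences were not tested.

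Reads on the plus strand were rare outside the window. The first covered base was 39979941 and the last was 39985792, a span of 5852 nt. In the 5901 nt upstream of the window there were 0 plus-strand reads and 15 minus-strand reads. In the same length downstream there were 5 plus-strand reads and 2 minus-strand reads. Inside the window the coverage was low at its very end, where the last 2 runs, from 39985608 on, held 4 and 6 reads.

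Within the window the downstream part held most of the reads. From the start of the tallest run at 39983373 to the end of the window, 2428 nt, there were 1582 sense reads, or 652 per kb. The 3473 nt before it held 396 sense reads, or 114 per kb, so the density was 5.71-fold higher downstream. This boundary was chosen after the values were seen, and the ratio is a description. The downstream part held 81.4% of the red reads, 78.1% of the green reads and 83.9% of the blue reads of the window. All 3 classes therefore had about the same split. In the upstream part the reads still covered 81.2% of the bases, against 90.2% downstream.

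**Figure D2:**
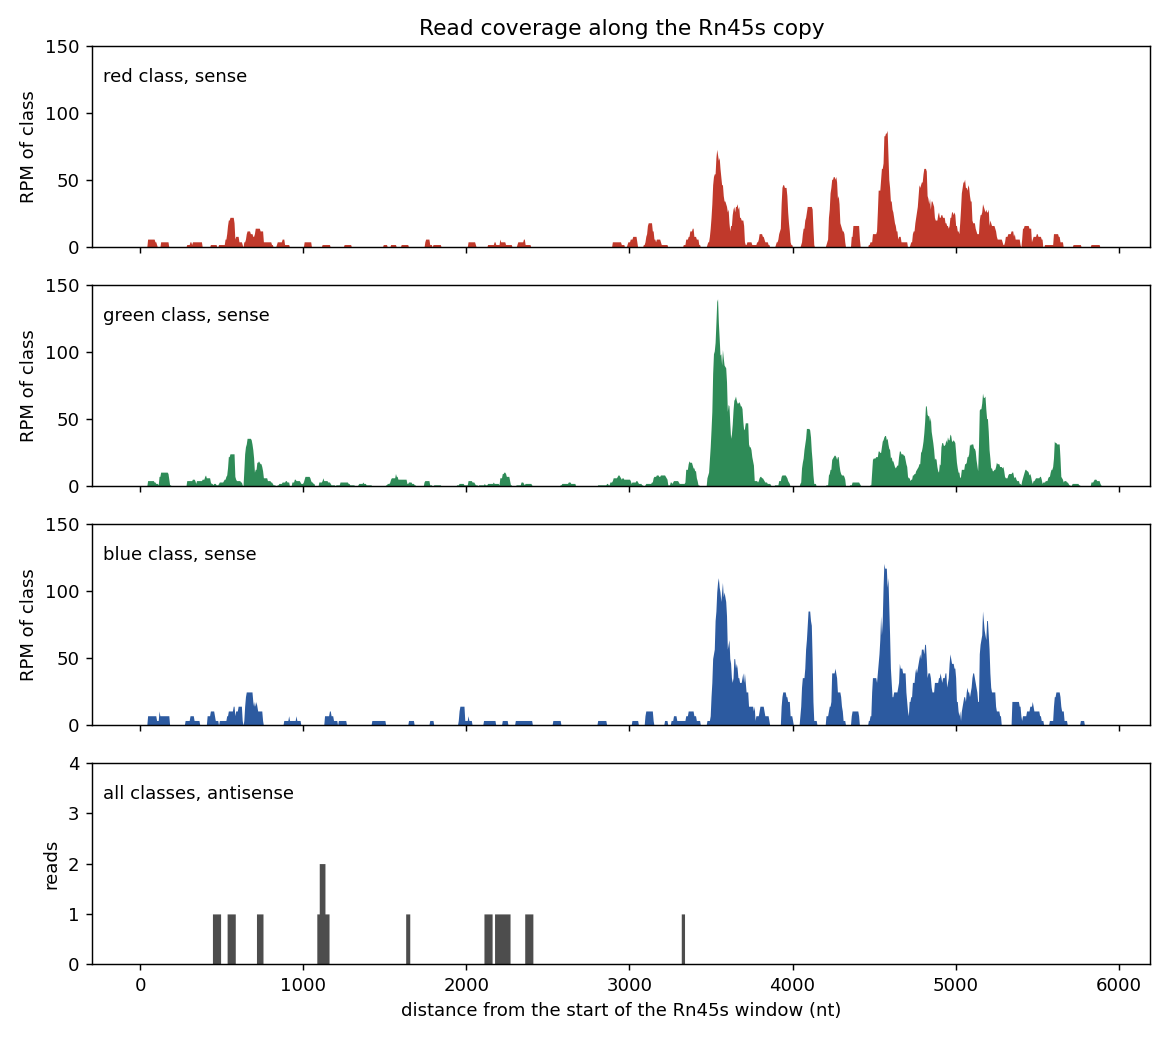
The upper 3 panels give sense coverage in RPM of the red, green and blue class (y axis) against the distance from the start of the window in nt (x axis), and the lowest panel gives antisense coverage in reads over all classes. The green class is highest at the tallest run, where its summit of 143 RPM falls between the plotted positions and is drawn slightly lower. The red class is highest further downstream, and all antisense reads lie in the upstream part.

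The sense reads formed 20 runs of overlapping reads, of which 12 were clusters, out of 6509 clusters outside the mitochondrial chromosome. The clusters held 1891 sense reads, 95.6% of the total. The other 8 runs held 87 reads, with summits of 3 to 9 reads. A pair of clusters accounted for 69.2% of the sense reads. The wider of them, from 39984361 to 39985602, held 852 reads in 1242 nt, with 111 reads at its summit at 39984463. The taller, from 39983373 to 39983765, held 516 reads in 393 nt.

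The taller cluster had 203 reads at its summit at 39983439, the second highest summit among the 6509 clusters. Its own summit was 37 reads in red, 136 in green and 34 in blue, and the positions of these 3 class summits lay between 39983436 and 39983448. The classes thus peaked at nearly the same place. Green reads made 68.2% of the 516 (interval 64.1 to 72.1), against 55.1% of all reads in the file, and red and blue had 82 reads each. After reads with a common 5' end in a class were reduced to 1, there were 250 reads and green made 53.2% of them. At a dense site that step removes more from a deeper class, so it does not test the green surplus: over the whole window it moved the green share from 57.4% to 49.2%. No 2 lines of the file have the same ends and strand, within a class or between classes. The number of reads that a site can show is therefore limited to its possible intervals. An interval drawn in 1 colour is absent from the others, so the counts of the classes at a dense site are not independent. At this cluster the 516 reads used 2.70% of the 19085 intervals of 20 to 74 nt that can be placed in it.

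The wider cluster had several maxima. Counted by the 5' ends of reads in 100 nt bins from the start of the window, the bin at 4500 nt had 135 reads, with 49 red, 47 green and 39 blue. The bin at 5100 nt had 127 reads, with 21 red, 76 green and 30 blue. Red and blue were highest in the first of these bins within the cluster, and green in the second. The bins at 4700, 4800, 4900 and 5000 nt held 94, 98, 90 and 86 reads. The red class had its highest summit of the window in this cluster, with 44 reads at 39984478, and the blue class reached 34 reads at 39984460, the same height as in the taller cluster. Green reads made 52.7% of the cluster (49.3 to 56.0).

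Between these large clusters lay 4 narrow ones, separated by stretches with no read. They ran from 39983787 to 39983901 with 38 reads, from 39983943 to 39984045 with 80 reads, from 39984105 to 39984223 with 72 reads, and from 39984248 to 39984317 with 14 reads. In 3 of the 4 every read covered 1 shared position. The 80 reads of the second had 8 bases in common, from 39983993 to 39984000, the 38 reads of the first had 11 in common, and the 14 reads of the fourth had 33. In the third, 60 of 72 reads lay on the summit. Thus 3 of the 12 clusters in Rn45s had all their reads on 1 position, while 34.3% of the 6497 clusters elsewhere did, so the number of such clusters was no higher here. Among clusters of at least 30 reads it was 2 of 8 in Rn45s and 7.87% of the 1042 elsewhere, a difference that was not tested. Gaps of 21, 41, 59, 24 and 43 nt without a sense read separated these 4 clusters from each other and from the large clusters on both sides.

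The narrow clusters also differed in their colour make-up. In the cluster starting at 39983787 there were 23 red, 8 green and 7 blue reads, so red made 60.5% (interval 44.7 to 74.4) against 28.6% of all reads in the file. Red made 44.4% (33.5 to 55.9) of the cluster starting at 39984105 and 57.1% (32.6 to 78.6) of the one starting at 39984248. The cluster between the first and the third, starting at 39983943, went the other way, with 18.8% red (11.7 to 28.7) and 24 of its 80 reads blue, against 16.3% blue in the file. After the same reduction, the clusters of 38, 72 and 14 reads kept 23, 45 and 11 reads, of which 13, 18 and 5 were red. Red was thus above its share of the file in these 3 after that step too, while it made 23.6% of the other narrow cluster. Each colour was treated as 1 library, so these differences have no replicate.

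**Figure D3:**
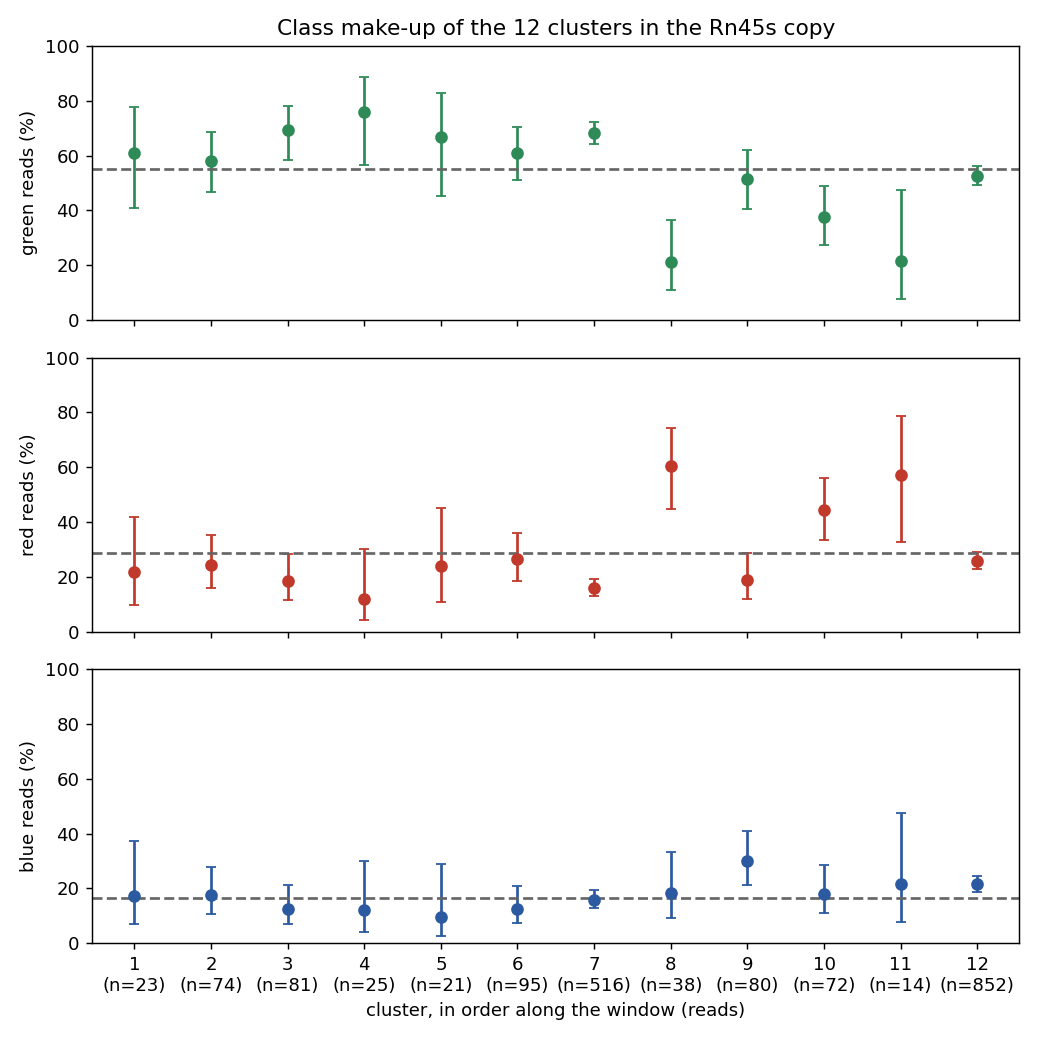
Points give the percentage of green, red and blue reads (y axis, 1 panel per class) in each of the 12 clusters in order along the window (x axis, with the number of reads), bars are 95% Wilson intervals, and the dashed line is the share of the class among all reads of the file. In clusters 8, 10 and 11 the whole red interval lies above its dashed line and the whole green interval below its own, and in clusters 9 and 12 the green point lies below the line with an interval that reaches it.

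The upstream part had 6 clusters, none with a summit above 47 reads. The 2 highest there were neighbours, from 39980175 to 39980526 with a summit of 38 reads and from 39980534 to 39980727 with a summit of 47 reads. The first of these had 18 red, 43 green and 13 blue reads. The second had 15 red, 56 green and 10 blue reads, and green made 69.1% of it (58.4 to 78.1), or 54.8% with 1 read per 5' end and class. Just before the taller cluster, a run of 627 nt from 39982705 to 39983331 held 95 reads with 27 at its summit. The remaining 3 upstream clusters, from 39979941 to 39980087, from 39981232 to 39981586 and from 39981973 to 39982178, had summits of 14, 10 and 13 reads.

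Inside the span, 19 gaps without a sense read added up to 843 nt. Their length ran from 5 to 135 nt with a median of 37 nt, and both gaps over 100 nt lay next to the run of 5 reads from 39982430 to 39982569. The blue class covered 59.5% of the window, the red class 62.5% and the green class 80.5%, in the order of their read numbers.

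The shape of the profile was similar in the 3 classes. Over 59 bins of 100 nt, Pearson's r of the number of 5' ends was 0.74 for red with green, 0.87 for red with blue and 0.87 for blue with green. Spearman's rho was 0.84, 0.78 and 0.78 for the same pairs. The bins share sequence and mappability and are not replicates, so no p is given. The red and green classes had the lowest r, and the 2 bins with most green reads held fewer red reads than their class sizes give, with 42 red and 173 green reads at 3500 nt and 23 red and 102 green reads at 3600 nt.

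Read ends were spread over many positions. The 1978 sense reads had 836 different 5' ends and 979 different 3' ends. The commonest 5' ends were 39983466 and 39985040, with 15 reads each. At the first, 1 read was red, 10 were green and 4 were blue, and at the second 2 were red, 13 green and 0 blue. The next, 39983601, had 13 reads, 11 of them green, and the other 7 of the 10 commonest had 10 or 11 reads. The commonest 3' ends were 39980479, 39983453 and 39983628, with 13 reads each. All 13 reads ending at 39983628 were green, and those at 39980479 were 5 red, 6 green and 2 blue. Ties for the last of the 10 places were settled by position. Of the 10 commonest positions, 7 of the 5' ends and 7 of the 3' ends lay in the taller cluster.

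Reads at Rn45s were longer than reads elsewhere in every class. The median length was 52 nt in red, 51 nt in green and 53 nt in blue, against 48, 45 and 47 nt for all other reads of these classes. The interquartile range over all sense reads was 43 to 61 nt, against 39 to 56 nt for the other reads. Of 853 tiles with at least 100 reads, 4.57% had a median length of at least 52 nt. The 5 tiles with most reads had medians of 46 to 50 nt. Within the window the median was 49 nt in the upstream and 52 nt in the downstream part. Reads at the sequenced limit of 74 nt made 5.56% of the sense reads and 4.18% of the others, although in the red class they made 5.12% and 5.45%.

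**Figure D4:**
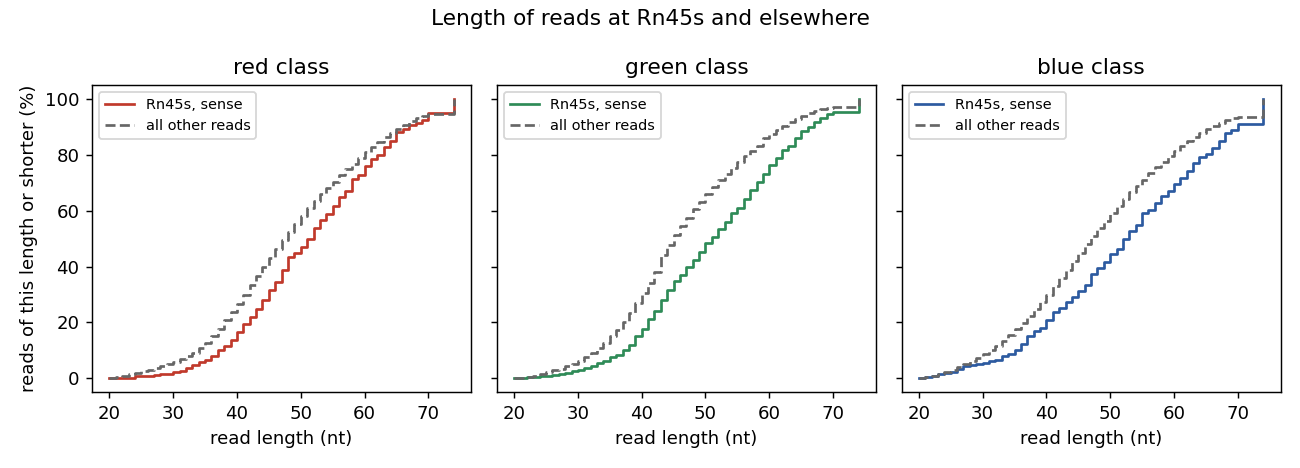
Each panel gives, for 1 colour class, the percentage of reads (y axis) of a given length in nt or shorter (x axis), with a solid line for sense reads at Rn45s and a dashed line for all other reads. The solid line lies to the right over most of the range, with medians of 51 to 53 nt against 45 to 48 nt.

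Antisense reads were few and lay in the upstream part. They were 9 green, 2 blue and 0 red reads, which made 0.553% of the reads of the window. The 11 reads, of 20 to 62 nt, were spread from 39980341 to 39983237, and no more than 2 overlapped. Of 853 tiles with at least 100 reads on their main strand, 17.7% had at least this share on the other strand, and the median was 0%. In the upstream part antisense reads made 2.70% of the reads (1.52 to 4.77). In the downstream part there were 0 antisense beside 1582 sense reads, which allows a share of up to 0.190%, taken here as 3 reads of the total and not as a Wilson limit. Sense reads were therefore 99.4% of the window, and 100% of its downstream part.

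A large part of the sense reads shared an end with another read of the class. Keeping 1 read per 5' end and class left 1187 of 1978 sense reads, or 60.0%, against 85.9% over the whole file. Of the 5 other tiles with most reads, the chromosome 7 tile kept 284 of 449 reads and the chromosome 5 tile 333 of 502. The mitochondrial, chromosome 19 and chromosome 3 tiles kept larger shares, at 635 of 882, 494 of 644 and 458 of 614 reads. The share kept was 70.6% in red, 51.4% in green and 72.9% in blue. As RPM of the reads kept in the class, Rn45s then had 801 in red, 707 in green and 1114 in blue, so green passed from the middle to the lowest of the 3 classes and blue was highest in both counts. A further step to 1 read per 3' end left 928 reads, or 46.9%, against 47.0% in the chromosome 7 tile and 49.6% in the chromosome 5 tile. The mitochondrial, chromosome 19 and chromosome 3 tiles kept 62.5%, 66.0% and 64.3%. At Rn45s the further step gave 653 RPM in red, 561 in green and 995 in blue. Distinct molecules in a dense window also share ends, so these steps remove some of them too. The order of red and green thus depended on how reads with a common end were counted, and Rn45s was the first of the tiles in each case.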

How the data were processed

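HITS-CLIP reads of 3 testis libraries were analysed as 1 group. Per the labels' protocols, 79 bases were sequenced and the first 5 came from the linker. Mapping was with Bowtie on the mm9 build, per the submitters' processing notes. Its version and settings, and how duplicates and multiply placed reads were handled, are, in the sources used here, not given. The deposited file has 1 line per read with a score of 0 on each line, which was not used. In it 0 lines repeated the same ends and strand, in the same or another class. Depth was 493620 red, 952096 green and 281981 blue reads.

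Reads were counted, merged into runs and compared with tiles in Python 3.11.15 (numpy 2.4.6, pandas 2.3.3, scipy 1.17.1). Cluster calling was tested on simulated data, with isolated groups of reads that all covered 1 position. That setting does not test how dense reads merge into wide runs, as they do in this window. Positions are counted from 1. The members, the lists and the positions described were chosen with earlier results of these data known. The rule named every cluster in the window, the 10 commonest 5' and 3' ends, antisense runs of at least 3 reads, of which there were 0, and the 5 other tiles with most reads. The upstream and downstream parts, the gaps, read lengths and the reads sharing 1 position were chosen after values were seen. No mm9 sequence or annotation was used, so no sequence is shown and markers of testis cells were not checked. Alternatives were the 1-read-per-end counts, leaving out each class, a minimum length, window edges, summit and class requirements, bin widths and shifted tiles.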

Additional observations from a re-analysis of the deposited data

How the results depend on the processing

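Keeping 1 read per 5' end and class changed the sense reads from 1978 to 1187, their share of all reads from 0.114% to 0.0800% and the highest summit from 203 to 98 reads. Keeping 1 read per 3' end after that gave 928 reads, 0.0660%, a summit of 67 reads and a sense percentage of 98.8%. Without each class in turn there were 842 to 1605 sense reads, 0.109% to 0.122% of all reads, a sense percentage of 99.3% to 99.8%, summits of 75 to 172 reads, 10 to 13 clusters (with reads of both remaining classes) and 74.6% to 84.5% of bases covered. The lowest of the read numbers, summits and covered bases came without the green class, which holds most reads. The cluster number of 12 stayed within 1.5 times, at 8 with 1 read per 5' and 3' end or a summit minimum of 20 reads and 17 with a minimum of 5. Rn45s was first among the tiles under every alternative run for that rank, and Pearson's r between classes moved by less than 1 SD over the 3 pairs with 50 or 200 nt bins. Reads of at least 30 nt and reads overlapping the edges moved no value beyond its interval or, for counts, 1.5 times. The causes were not tested. No paired analysis was possible because there is a single group of libraries. Depth limits the upstream part, where the blue class had 60 sense reads.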

Other observations

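Some pairs of sense reads at Rn45s had a common 5' end and 3' ends 1 or 2 nt apart. Both reads were of 1 colour in 53.9% of these 505 pairs (interval 49.5 to 58.2). The class sizes of the whole window give 42.2%, but clusters differed in class make-up, with 68.2% green in the taller cluster. On the rest of chromosome 17 the share was 76.1% of 4527 pairs (74.9 to 77.3), where class sizes give 41.6%. With a shared 3' end and a difference of 1 or 2 nt at the 5' end, it was 56.8% of 340 pairs at Rn45s and 76.9% of 2789 pairs elsewhere on the chromosome. For 3' ends 10 to 54 nt apart with a shared 5' end, the shares were 49.0% and 69.4%. For 5' ends that far apart with a shared 3' end they were 46.1% (43.4 to 48.7) and 48.6% (47.3 to 49.9), with overlapping intervals. Reads elsewhere on the chromosome are far sparser. Pairs share reads and are not independent, and the part of density and of local class make-up in these shares was not tested.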
